A study of Arabidopsis thaliana with 9 samples.

Results

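Preys shared by the kinase baits PKS5 and SOS2 are the genes whose inserts were recovered with both kinases and far less with another bait, SCAB1, when yeast carrying Arabidopsis cDNA clones was screened by two-hybrid selection. They were chosen by their measured levels: a gene had to reach 20 CPM (reads divided by the library total, times 1000000) in each of the 6 kinase libraries, and its lowest kinase level had to be at least 4 times its highest SCAB1 level. Of 10224 genes in the table, 474 reached 20 CPM in all 6 kinase libraries and 23 passed both thresholds. The rule left out 5 of the 23, namely AT1G23190, AT1G01730, AT5G37740, AT1G49240 and AT1G20960, so 18 genes are described. The difference between the kinases and SCAB1 is therefore given as a description, with no test.

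A two-hybrid screen splits a transcription factor between a bait protein and the library proteins, called preys. Contact of bait and prey restores the factor, which turns on HIS3 and lets the yeast live on medium that lacks histidine. Each bait had 3 libraries, which the labels put at recovery times of 0, 2 and 4 h and which are called replicates 1, 2 and 3 in that order. All 9 libraries came from more than 3000 colonies each, grown without tryptophan, leucine and histidine and with 1 mM 3-AT, which blocks HIS3 activity and raises the demand on the reporter. Prey inserts were amplified by PCR, sheared and enriched for fragments that hold vector sequence, so a read comes from the end of an insert, and levels were not divided by gene length. No unselected library is labelled, and SCAB1 was the only bait of another protein family, so a level shared by both kinases is measured here against 1 other bait. The labels do not tie the 3 libraries of a bait to separate cultures, and recovery time differs among them, so p-values measure the spread between these libraries only.

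PKS5 and SOS2 are plant protein kinases of the CIPK family, which are switched on by calcineurin B-like (CBL) calcium sensors. SOS2 works with its sensor SOS3 in salt tolerance, where it activates the sodium transporter SOS1 at the plasma membrane. PKS5 acts on the plasma membrane proton pump and has been described as an inhibitor of SOS2. SCAB1 is an actin-bundling protein that takes part in stomatal closure. A gene's read number counts PCR copies of plasmids from selected colonies and is not a measure of binding strength.

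Read totals ran from 1640114 to 3288437. A count of 0 allows up to 3 reads, or 0.912 to 1.83 CPM depending on the library, a limit that covers counting error only. A distinct read, as the authors' table counts them, stood for 45.9 to 137 reads, with the highest value in PKS5 replicate 2, so reads are not independent counts. PCR copies and repeated colonies of 1 clone cannot be told apart in these numbers, and what makes a read distinct is not given in the labels. The distinct-read column of SCAB1 replicate 3 equals that of SCAB1 replicate 2 in 10224 of 10224 genes and was not used. As a check of the labels, the PKS5 gene itself (SIP4 in RefSeq) had reads as a prey in all 3 baits, at 1747 ± 162 CPM (SD, n = 3) in PKS5, 684 ± 251 in SOS2 and 1195 ± 215 in SCAB1. The SOS2 gene stayed at 6.66 CPM or less in every library, and the SCAB1 gene stood at 34.5, 80.01 and 57.9 CPM in the SCAB1 libraries against at most 2.73 in the kinase libraries. Of the bait genes, SCAB1 alone was thus far higher in the libraries of its own bait, at more than a few CPM. The check therefore says little about the PKS5 and SOS2 labels.

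Of the 18 shared preys, 8 carry a gene name in RefSeq and 10 are listed under a locus number alone, and no role is given here for the latter. Together the 18 held 2.85 to 4.11% of the reads of a kinase library and 0.0116 to 0.0336% of those of a SCAB1 library. SCAB1 replicate 1 was the highest SCAB1 library for 14 of the 16 shared preys with any SCAB1 read, as for 86.9% of all genes tested, and without it 29 genes would pass the rule in place of 18, the 18 among them. The same thresholds turned to the other pairs of baits were passed by 5 of 436 genes for PKS5 and SCAB1 over SOS2 (1.15%) and by 70 of 550 for SOS2 and SCAB1 over PKS5 (12.7%), against 23 of 474 (4.85%) for the kinases over SCAB1. These counts were not tested against each other.

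**Figure D1:**
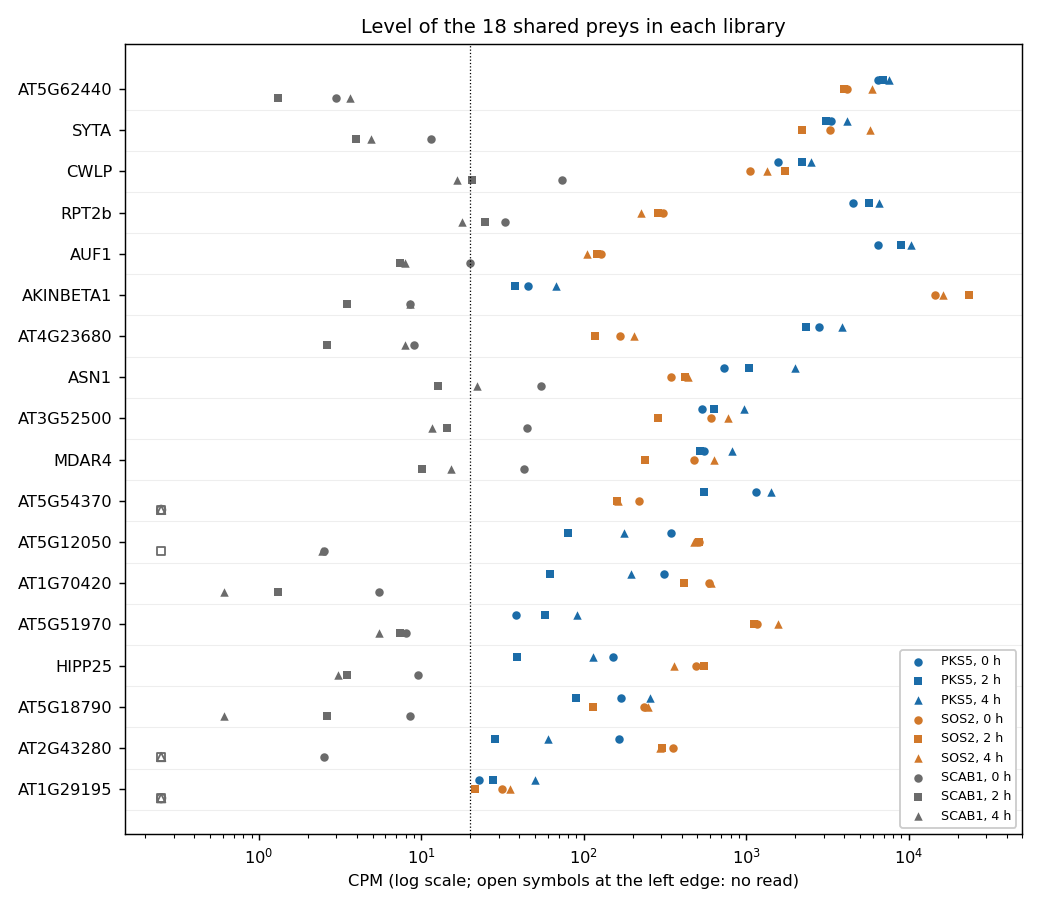
CPM (log axis) of the 18 shared preys in the 9 libraries, with colours for baits, symbols for recovery times, open symbols for libraries with no read and a dotted line at 20 CPM. For AUF1 and RPT2b the PKS5 points lie far right of the SOS2 points, for AKINBETA1 and AT5G51970 far left, and for SYTA they overlap.

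The PKS5 and SOS2 levels of a shared prey could differ freely above the threshold, so this difference was tested, with limma-voom over 3811 genes and Benjamini-Hochberg adjustment. Of the 18 shared preys, all of them tested, 5 were higher with PKS5, where 7.16% of all genes tested were called, and 5 were higher with SOS2, where 24.8% were called. The other 8 did not pass the test. The libraries of the kinases did not overlap in CPM for 12 of the 18, against 29.6% of all genes tested. The median size of the log2 difference, sign ignored, was 1.67 for the 18 and 0.70 for all genes tested. The 18 were chosen for high levels, with medians of 355 to 893 CPM in a kinase library. Medians over all genes tested were 3.63 to 29.1 CPM in these libraries. The shares and sizes above were not matched for level, so they are not shown to be particular to shared preys. The signed median of all genes tested was -0.18 with TMM factors, -0.53 with library size alone and 0.22 with totals that leave out genes above 5% of any library, so differences smaller than these shifts depend on the scaling.

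**Figure D2:**
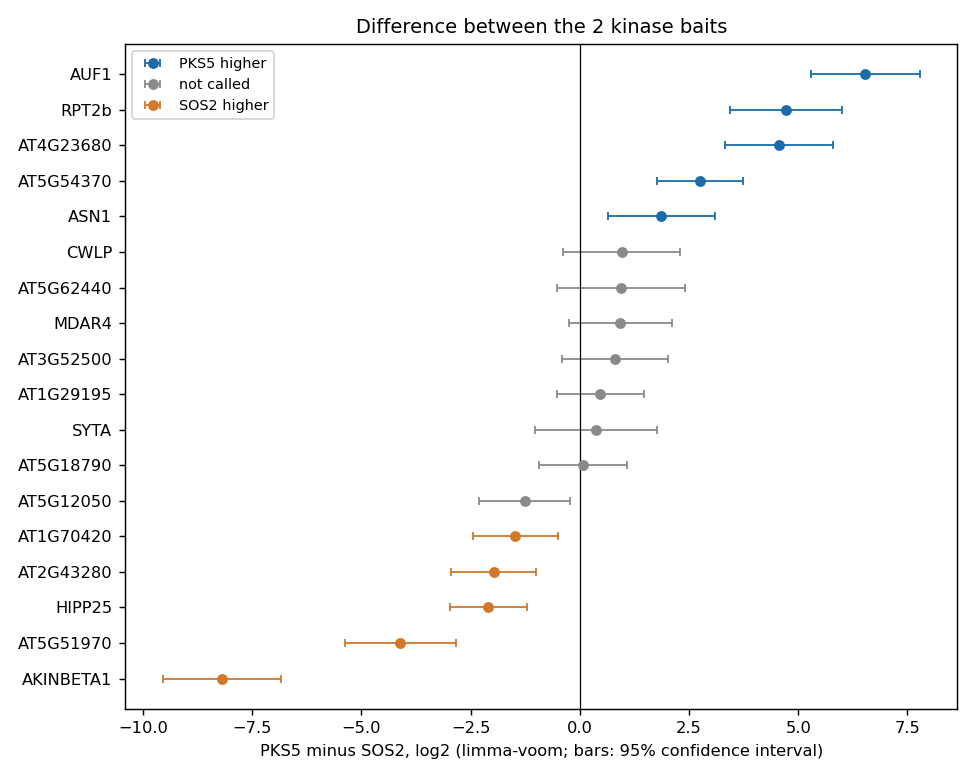
Log2 difference of PKS5 minus SOS2 for each shared prey by limma-voom, with its 95% confidence interval. The points run from -8.19 for AKINBETA1 to 6.54 for AUF1, and 7 of the 8 genes not called have intervals that include 0.

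Among the named shared preys AUF1 and RPT2b differed most towards PKS5. AUF1 is an auxin up-regulated F-box protein, and F-box proteins choose substrates for SCF ubiquitin ligases. AUF1 stood at 6471, 8948 and 10344 CPM in PKS5 replicates 1 to 3, at 127, 120.4 and 104 CPM in SOS2, and at 19.99, 7.43 and 7.93 CPM in SCAB1. Every PKS5 library was above every SOS2 library, while the rule itself placed every SOS2 library above every SCAB1 library. The log2 difference of PKS5 minus SOS2 was 6.54 (SE 0.60, adjusted p = 7.71e-09 by limma-voom), a 73.2-fold ratio of the means. The lowest SOS2 library was 5.20 times the highest SCAB1 library, where the rule required at least 4. AUF1 had only 10, 7 and 6 distinct reads in SOS2 replicates 1 to 3, against 5 and 3 in SCAB1 replicates 1 and 2. Its SOS2 level was 1.37% of its PKS5 level. Mean PKS5 levels reached 1000 CPM in 54 genes. The median SOS2 level of these genes was 1266 CPM, and 8 of them lay below AUF1 in SOS2. Whether AUF1 reads in SOS2 came over from the PKS5 libraries was not tested.

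RPT2b is an ATPase of the base of the 26S proteasome regulatory particle, the ring that unfolds ubiquitin-tagged proteins. It had 4508, 5678 and 6519.7 CPM in PKS5, 309, 287 and 224 CPM in SOS2, and 32.5, 24.5 and 17.7 CPM in SCAB1. The PKS5 and SOS2 libraries did not overlap, while the rule itself placed both above SCAB1. PKS5 exceeded SOS2 by 4.72 on the log2 scale (SE 0.62, adjusted p = 1.19e-06 by limma-voom). SOS2 levels were at least 6.89 times the highest SCAB1 level, where the rule required at least 4.

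A near-identical paralog, RPT2a, showed another pattern, with 0.918 ± 0.425 CPM in PKS5 (SD, n = 3), 235 ± 39.3 in SOS2 and 0.333 ± 0.577 in SCAB1. RPT2a was higher with SOS2, by -7.64 on the log2 scale of PKS5 minus SOS2 (adjusted p = 1.12e-08 by limma-voom). The sources used here do not say how reads of similar genes were divided, so the split between RPT2a and RPT2b is uncertain. AT1G05240 and AT1G05250 had the same CPM as each other in every library. In SOS2, RPT2a had 252, 262 and 190 CPM, near the RPT2b levels. Whether reads were counted for both RPT2 genes was not tested. The RPT2b level in SOS2, and with it its place among the shared preys, is therefore uncertain. With the reads of both genes summed, a step added after the data were seen, PKS5 still exceeded SOS2 by 3.82 (adjusted p = 2.6e-05 by limma-voom). That sum repeats any read that was counted for both genes. Among the 7 proteasome ATPases of this type in the table, RPT2b alone passed the rule. By limma-voom RPT4A was higher with PKS5 at 232 ± 101 against 27.1 ± 20.9 CPM (adjusted p = 1.76e-07), and RPT1A was higher with SOS2 at 745 ± 213 against 13.99 ± 7.64 CPM (adjusted p = 3.52e-09).

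SnRK1, a kinase complex that responds to low energy, was represented by its beta subunit AKINBETA1, which holds the catalytic and gamma subunits together. AKINBETA1 had 14434, 23288 and 16310.5 CPM in SOS2, 45.5, 37.7 and 67.0 CPM in PKS5, and 8.49, 3.50 and 8.54 CPM in SCAB1. The kinase libraries lay far apart, and the lowest PKS5 library was 4.41 times the highest SCAB1 library, close to the threshold of 4. The log2 difference was -8.19 (SE 0.65, adjusted p = 1.27e-09 by limma-voom), so SOS2 was higher, with a 359.8-fold ratio of the means.

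The AKINBETA1 signal in PKS5 rested on 96, 114 and 140 reads and 9, 10 and 5 distinct reads, against 41 to 74 distinct reads in an SOS2 library and 5 in SCAB1 replicate 1. It was 0.278% of the SOS2 level. Among the 139 genes with a mean of at least 1000 CPM in SOS2, the median PKS5 level was 92.8 CPM, and 50 genes had a lower PKS5 level than AKINBETA1. Whether reads of preys abundant in one library reach another was not tested.

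Of the 7 listed SnRK1 subunits, 5 were in the table, 4 were tested and all 4 were higher with SOS2, where 24.8% of all genes tested were called. They were AKINBETA1, the catalytic subunit KIN10 at 83.0 ± 25.9 CPM in SOS2 against 3.81 ± 3.44 in PKS5, the gamma subunit KING1 at 118 ± 40.2 against 4.39 ± 3.70, and AT4G16360, the beta subunit KINbeta2, at 221 ± 56.9 against 2.38 ± 2.39. Their log2 differences were -8.19, -4.85, -4.80 and -6.84. Only AKINBETA1 reached 20 CPM in all PKS5 libraries and so counted as shared.

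ASN1, a glutamine-dependent asparagine synthetase that is induced in the dark and moves nitrogen into asparagine, was also higher with PKS5. ASN1 had 725, 1038 and 1983 CPM in PKS5, 344, 417 and 435 CPM in SOS2, and 54.5, 12.7 and 21.9 CPM in SCAB1. The lowest PKS5 library was above the highest SOS2 library, and the spread was wide within PKS5. The log2 difference was 1.87 (SE 0.59, adjusted p = 0.016 by limma-voom). The adjusted p rose to 0.152 when PKS5 replicate 2 was left out, to 0.084 without SOS2 replicate 1 and to 0.0735 without SOS2 replicate 2, so the call was lost in each case, within a range of 1.81e-09 to 0.152 over the 17 alternatives run. ASN2, the other listed asparagine synthetase, had 0.949 ± 1.25 CPM in PKS5 and 0.949 ± 0.913 in SOS2 and was not tested.

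AT4G23680 and AT5G54370, both without a gene name, were the other shared preys higher with PKS5. AT4G23680 had 2816, 2319.7 and 3854 CPM in PKS5, 166, 117 and 202 CPM in SOS2, and 8.99, 2.62 and 7.93 CPM in SCAB1, with a log2 difference of 4.56 (SE 0.60, adjusted p = 1.23e-06 by limma-voom). AT5G54370 had 1142, 546 and 1409 CPM in PKS5 and 217, 159 and 163 CPM in SOS2, with a log2 difference of 2.76 (SE 0.48, adjusted p = 4.87e-05). In both genes the kinase libraries did not overlap. AT5G54370 had no read in any SCAB1 library, and against the mean of the 3-read limits of these libraries its mean level was at least 668-fold higher in PKS5 and at least 116-fold higher in SOS2.

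HIPP25, a heavy metal associated isoprenylated plant protein, belongs to a family of metal-binding proteins with a lipid anchor. HIPP25 had 488, 549 and 360.0 CPM in SOS2, 151, 39.0 and 113 CPM in PKS5, and 9.49, 3.50 and 3.05 CPM in SCAB1. SOS2 was higher in every library, by -2.10 on the log2 scale of PKS5 minus SOS2 (SE 0.43, adjusted p = 0.000314 by limma-voom). Its lowest kinase level came from PKS5 replicate 2, where it had 1 distinct read, and was 4.11 times the highest SCAB1 level, the smallest ratio among the 18. FP6, another of the 6 listed family members in the table, had 1987 ± 149 CPM in SOS2 but 19.5 ± 12.5 CPM in PKS5, and it did not reach the threshold in all PKS5 libraries.

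Unnamed loci made up the rest of the genes higher with SOS2. AT5G51970 had 1166, 1116 and 1558 CPM in SOS2, 38.4, 57.8 and 90.5 CPM in PKS5, and 7.99, 7.43 and 5.49 CPM in SCAB1, with a log2 difference of -4.11 (SE 0.61, adjusted p = 7.02e-06 by limma-voom). AT2G43280 had 351, 301 and 296 CPM in SOS2, 163, 28.4 and 59.8 CPM in PKS5, and 2.50, 0 and 0 CPM in SCAB1, with a log2 difference of -1.97 (SE 0.47, adjusted p = 0.00165). AT1G70420 had 591, 410.2 and 604 CPM in SOS2, 309, 61.5 and 195 CPM in PKS5, and 5.50, 1.31 and 0.610 CPM in SCAB1. In these 3 genes no PKS5 library reached the lowest SOS2 library.

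The AT1G70420 difference was -1.48 (SE 0.47, adjusted p = 0.017 by limma-voom), and of the 10 calls it was the one lost most often. The call was lost under 10 of 17 alternatives, among them those without PKS5 replicates 2 or 3, SOS2 replicates 2 or 3 or SCAB1 replicate 1, with a range of adjusted p from 0.00921 to 0.279. AT5G51970 lost its call when distinct reads were fitted in place of reads (-0.43, adjusted p = 0.143, the highest of its 17 alternatives, which began at 5.38e-13). A distinct read of this gene stood for 11.4 reads over the PKS5 libraries.

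**Figure D3:**
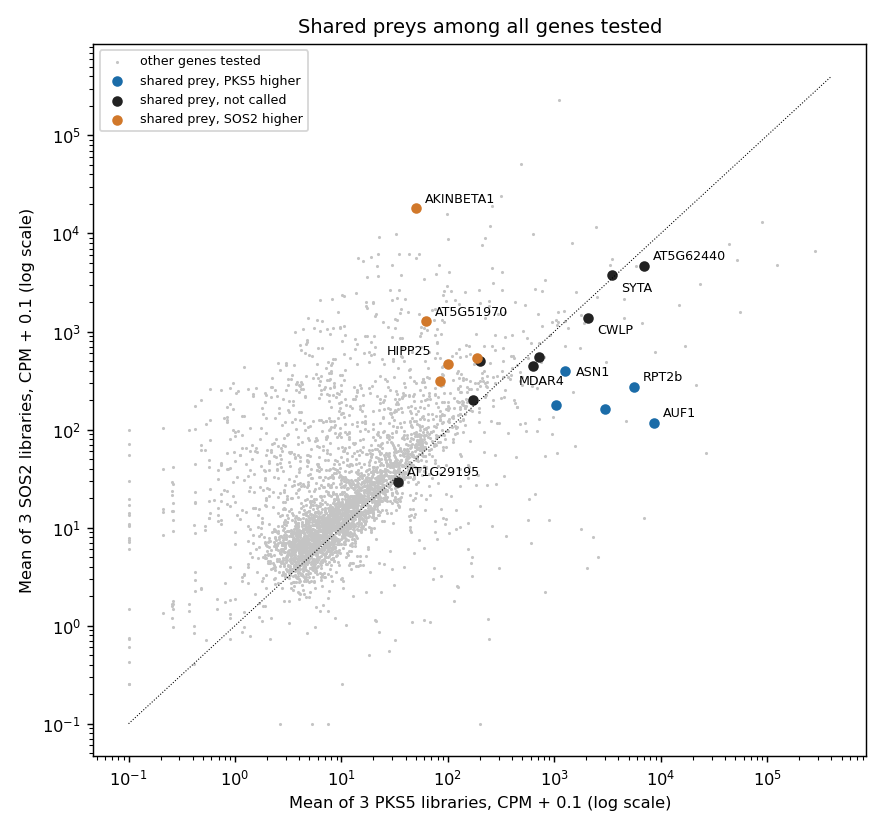
Mean CPM over the 3 PKS5 libraries (horizontal axis) and over the 3 SOS2 libraries (vertical axis), each plus 0.1, on log axes, for all 3811 genes tested (grey) and the 18 shared preys (coloured by the test), with a dotted line of equal levels. AUF1 and RPT2b lie below the line, on the PKS5 side, AKINBETA1 and AT5G51970 above it, on the SOS2 side, and AT5G62440, SYTA and CWLP near it at high levels in both.

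SYTA and CWLP had high levels in both kinases and no call between them. SYTA, the plant synaptotagmin also named SYT1, ties the endoplasmic reticulum to the plasma membrane and helps to keep the plasma membrane intact under stress. SYTA had 3316, 3077 and 4159 CPM in PKS5, 3251, 2193 and 5736 CPM in SOS2, and 11.5, 3.93 and 4.88 CPM in SCAB1. The kinase libraries overlapped, and the lowest was 191 times the highest SCAB1 library. The log2 difference was 0.37 (95% confidence interval -1.02 to 1.76, adjusted p = 0.753 by limma-voom), and its sign turned with library size alone and without PKS5 replicate 2 or SOS2 replicate 1. NTMC2T2.1, another synaptotagmin-type gene, had 2.39 ± 2.99 CPM in PKS5 and 38.5 ± 3.76 in SOS2.

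CWLP is named for linking the cell wall to the plasma membrane. CWLP had 1572, 2213 and 2482 CPM in PKS5, 1047, 1733 and 1332 CPM in SOS2, and 73.4, 20.5 and 16.5 CPM in SCAB1. The ranges of the kinases overlapped, and the lowest kinase library was 14.3 times SCAB1 replicate 1, the highest SCAB1 library. PKS5 minus SOS2 was 0.96 on the log2 scale (95% confidence interval -0.38 to 2.30, adjusted p = 0.313 by limma-voom). In distinct reads the order of the baits was the other way, with 28 to 32 in a PKS5 library and 41 to 53 in an SOS2 library, before scaling, and the fitted difference in distinct reads was -0.061.

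MDAR4, a monodehydroascorbate reductase of the peroxisomal membrane, regenerates ascorbate, which removes hydrogen peroxide. MDAR4 had 547, 517 and 818 CPM in PKS5, 476, 239 and 633 CPM in SOS2, and 43.0, 10.1 and 15.2 CPM in SCAB1. The kinase ranges overlapped, and the log2 difference was 0.93 (95% confidence interval -0.25 to 2.11, adjusted p = 0.254 by limma-voom). MDAR1, another of the 4 listed reductases in the table, had 59.2 ± 22.2 CPM in PKS5, 67.0 ± 24.9 in SOS2 and 13.0 ± 5.21 in SCAB1. MDAR1 thus reached 20 CPM in all kinase libraries, but its lowest kinase level was 2.00 times its highest SCAB1 level and it was not a shared prey.

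AT5G62440, without a gene name, had the widest gap to SCAB1 relative to its own level among the 16 genes with SCAB1 reads. It had 6410.2, 6908 and 7597 CPM in PKS5, 4188, 3972 and 5961 CPM in SOS2, and 3.00, 1.31 and 3.66 CPM in SCAB1. The lowest kinase library was 1086 times the highest SCAB1 library. PKS5 libraries were all above SOS2 libraries in CPM, but the log2 difference of 0.95 did not pass the test (95% confidence interval -0.53 to 2.42, adjusted p = 0.377 by limma-voom).

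The other loci without a call were AT3G52500, AT5G12050, AT5G18790 and AT1G29195. AT3G52500 had 534 to 968 CPM in PKS5, 285 to 771 in SOS2 and 11.6 to 44.5 in SCAB1, with a log2 difference of 0.81 (95% confidence interval -0.41 to 2.03, adjusted p = 0.354 by limma-voom). AT5G12050 had 345, 79.6 and 178 CPM in PKS5 and 510.0, 511 and 479 CPM in SOS2, and the libraries did not overlap. Its difference of -1.26 came close to the threshold (95% confidence interval, not adjusted for the number of genes, -2.31 to -0.22, adjusted p = 0.0603).

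AT5G18790 had 89.2 to 255 CPM in PKS5 and 113 to 249.7 CPM in SOS2, with a log2 difference of 0.08 (95% confidence interval -0.92 to 1.08). AT1G29195 had 22.7, 27.8 and 50.3 CPM in PKS5, 31.4, 21.5 and 35.3 CPM in SOS2 and no read in SCAB1, so that its mean level was at least 21.7-fold and 19.0-fold higher than the 3-read limit there. Its log2 difference was 0.47 (95% confidence interval -0.52 to 1.46, adjusted p = 0.535 by limma-voom). The intervals of all 8 genes without a call reach past a 2-fold difference, so they are not shown to have equal levels.

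Leaving out single libraries moved these counts. Without SOS2 replicate 3, 10 of the shared preys were called higher with PKS5, the 5 above among them, while the share over all genes tested rose to 11.2%. The calls gained were those of MDAR4 (log2 difference 2.00), AT3G52500 (1.88), AT5G62440 (1.86), AT1G29195 (1.35) and AT5G18790 (1.04), with adjusted p from 0.00203 to 0.0477 by limma-voom, in a range of 4.78e-05 to 0.98 over all alternatives for these 5 genes. Without PKS5 replicate 2, which had the smallest TMM factor (0.44), 4 were called in each direction, against 5.04% and 23.4% of all genes tested. With library totals that leave out genes above 5% of any library, 8 were higher with PKS5 and 4 with SOS2, against 5.48% and 17.8% of all genes tested. Each of the 8 genes without a call passed the threshold under at least 1 of the alternatives run. AUF1, RPT2b, AT4G23680, AT5G54370, AKINBETA1, HIPP25 and AT2G43280 held their call and direction under every alternative that was run on them.

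The number of distinct reads behind a shared prey differed widely. Of the 18 genes, 14 had at least 5 distinct reads in each kinase library, and 4 fell to 1 or 2, namely HIPP25, AT2G43280, AT1G29195 and AT5G18790. AT1G29195 had 1 to 4 distinct reads per kinase library and AT5G18790 had 2 to 4. At the other end AKINBETA1 reached 74 in SOS2 replicate 2, and AT5G62440 had 20 to 26 in all 6 libraries.

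Each distinct read of a shared prey stood for a median of 128 reads over the PKS5 libraries and 57.2 over the SOS2 libraries, against 6.97 and 9.21 for all genes tested. The largest values were 774 for AT5G62440 in PKS5 and 779 for AKINBETA1 in SOS2. The rule chose genes with many reads, so a high number of reads per distinct read is in part built into the choice.

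**Figure D4:**
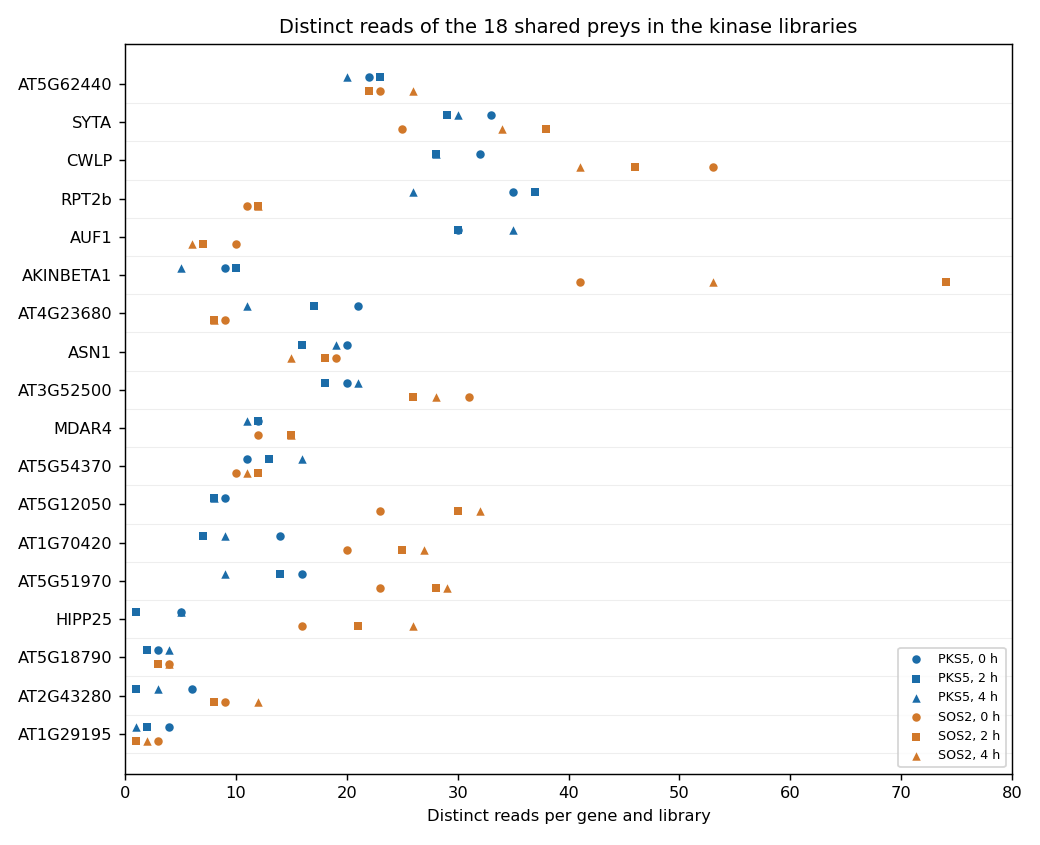
Distinct reads of each shared prey in the 6 kinase libraries, with colours for baits and symbols for recovery times. AKINBETA1 has 41 to 74 in SOS2 and 5 to 10 in PKS5, while AT5G18790 and AT1G29195 have 4 or fewer in every library.

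Recovery time was tested as 0 h against the mean of 2 and 4 h, with bait as a block and 1 library per bait and time. By limma-voom 0 of the 18 shared preys were called, as were 0.0% of all 3811 genes tested. At an unadjusted p under 0.05 there were 10 shared preys and 488 of all genes tested. AT5G51970 had the smallest adjusted p among the 18, with a log2 difference of -1.57 (SE 0.38, adjusted p = 0.0876, range over its 17 alternatives 0.0267 to 1.00). At 0, 2 and 4 h it had 38.4, 57.8 and 90.5 CPM in PKS5 and 1166, 1116 and 1558 CPM in SOS2. In SCAB1 it had 7.99, 7.43 and 5.49 CPM, with the highest level at 0 h. With library size alone its difference was -0.31.

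Estimates for 17 of the 18 shared preys were below 0, the exception being AT2G43280 at 0.25, and their median was -0.90 against -0.07 for all genes tested, of which 55.6% were below 0. The sign depended on the scaling, which moved all genes alike. With library size alone the median of the shared preys was 0.07 and that of all genes tested 1.20, with totals that leave out genes above 5% they were -0.14 and 1.03, and with median-of-ratios factors they were -0.99 and -0.19. The shared preys thus had the lower median of both under each of these scalings. The rule used these same values, however. It set a ceiling on the highest SCAB1 level, which came from the 0 h library for 86.9% of all genes tested. It also set a floor on the lowest kinase level, and the lowest PKS5 library was that of 2 h for 92.4%. The low estimates of the shared preys are therefore in part built into the choice. With library size alone 1172 of all genes tested were called higher at 0 h. Without PKS5 replicate 3, 3 shared preys were called lower at 0 h, as were 43 of all genes tested (1.20%).

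Within PKS5, replicate 3 was the highest library for 14 of the 18 genes in CPM and replicate 2 the lowest for 10, against 55.9% and 92.4% of all genes tested. The rule set a floor on the lowest kinase level, so it left out genes that fell too low in PKS5 replicate 2. The contrast for PKS5 replicate 2 is therefore in part built into the choice. Within SOS2, replicate 2 was the lowest for 10 of the 18, against 25.98% of all genes tested. The same floor left out genes that fell too low in any SOS2 library, so this contrast is also in part built into the choice. The coefficient of variation over the 3 libraries of a bait ran from 8.55% for AT5G62440 to 84.2% for AT2G43280 in PKS5, and from 3.69% for AT5G12050 to 48.8% for SYTA in SOS2. The genes with the widest spread in PKS5 (AT2G43280, AT5G12050, AT1G70420 and HIPP25) all had their lowest level in replicate 2.

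Other proteins known to work with these kinases were examined from lists of genes, and AKINBETA1 was the one shared prey on any of the 6 lists. Of 10 CBL calcium sensors 7 were in the table and 0 had enough reads to be tested. Of 26 CIPK kinases 16 were in the table and 7 were tested. Calls on the lists stand against 7.16% of all genes tested called higher with PKS5 and 24.8% higher with SOS2. SIP4, the PKS5 gene, was higher with PKS5 (log2 difference 1.79, adjusted p = 0.0342 by limma-voom), and CIPK9, CIPK7 and CIPK15 were higher with SOS2 (-3.86, -1.53 and -5.72).

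Of 13 genes of 14-3-3 proteins, which bind phosphorylated proteins, 8 were tested and GRF6 was higher with SOS2 (-1.01, adjusted p = 0.0365 by limma-voom). Of 9 clade A PP2C phosphatases, which restrain abscisic acid signalling, 2 were tested and PP2CA was higher with PKS5 at 119 ± 21.4 against 9.66 ± 6.44 CPM (4.31). Of 14 partners and substrates of either kinase known from the literature, 8 were tested. The chaperone J3 was higher with PKS5 at 892 ± 489 against 11.9 ± 9.22 CPM (6.79). VAB2, a subunit of the vacuolar proton pump, was called higher with PKS5 by 1.17 (adjusted p = 0.038 by limma-voom). Its kinase libraries overlapped in CPM, at 12.4 ± 4.99 in PKS5 and 8.09 ± 6.79 in SOS2, with 11.4 ± 7.87 in SCAB1. VAB3, another listed subunit of that pump, had a difference of -1.11 and was not called (adjusted p = 0.0513). The catalases CAT3 and CAT2, the kinase BIN2 and ELC, a protein of endosomal sorting, were higher with SOS2 (-2.16, -1.48, -1.76 and -2.40). Among them ELC alone was higher still in SCAB1, at 247 ± 73.1 CPM against 21.0 ± 9.55 in SOS2 and 2.98 ± 1.51 in PKS5. None of the listed genes named here was a shared prey by the rule.

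The ratio threshold divided genes with similar values, while the CPM threshold lay in a wider gap. Just inside the 20 CPM threshold were AT1G29195, AT2G43280 and AKINBETA1, with lowest kinase levels of 21.5, 28.4 and 37.7 CPM, and the next genes that passed the ratio were AT5G08690, RAC10 and GER2 at 10.2, 4.26 and 3.79 CPM. Just inside the ratio of 4 were HIPP25, AKINBETA1 and AT5G51970 at 4.11, 4.41 and 4.80, and just outside were AT4G36195, AT4G32960 and SMO2-1 at 3.96, 3.79 and 3.31.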

How the data were processed

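Per the labels' protocols, plasmids of selected yeast gave prey inserts that were PCR-amplified and broken into pieces of 200 to 300 bp, of which those with 29 bp of vector were enriched by PCR and sequenced as pairs. CASAVA, cutadapt 1.18, HISAT2 and the TAIR10 build are listed, without roles, per the submitters' processing notes. The authors deposited read counts and distinct reads per gene, per the file headers, not normalized. Cells without a read hold a mark, which was read as 0. The rule for assigning reads to genes is not given here.

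CPM is given as mean ± SD over 3 libraries. Tests used limma-voom (limma 3.58.1, R 4.3.3, robust eBayes) on the 9 libraries, with TMM factors of 0.44 to 2.38 (trimming 30% for M and 5% for A) and an offset of 0.5. A gene was tested if 3 libraries or more reached a CPM worth 10 reads at the median depth and its reads summed to 15, and the 3811 such genes held 98.6 to 99.8% of all reads. Adjusted p under 0.05 was called. Pairs of libraries of a bait differed in their read counts (chi-square per degree of freedom 17.2 to 62.2), so none was a copy. Scripts were tested on simulated data.

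Symbols came from RefSeq, assembly TAIR10.1, where 10201 identifiers were found and 23 were not. No coordinates or sequences were used, and protein features were not analysed here. All 18 members were named by rule, with listed genes called between the kinases and the bait genes. Paralogs were listed after the members were seen. The members and gene lists were chosen with earlier results of these data known.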

Additional observations from a re-analysis of the deposited data

Results flagged for a closer look

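AUF1 and RPT2b had recovery-time ratios of opposite sign in the 2 kinase baits in CPM, but not after division by the TMM factors. For AUF1 the mean log2 ratio of CPM at 2 and 4 h over 0 h was 0.57 in PKS5 and -0.19 in SOS2, with both later libraries on the same side in each bait. For RPT2b it was 0.43 in PKS5 and -0.29 in SOS2, again with both later libraries on the same side. The difference between the baits was not tested. With CPM divided by the TMM factor, the ratios were 1.38 in PKS5 and 1.25 in SOS2 for AUF1, and 1.24 and 1.16 for RPT2b, so all were above 0. The opposite signs therefore depend on the scaling, and each bait had 1 library at 0 h.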

How the results depend on the processing

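The rule gave 30 genes with a ratio of 2 (the 18 among them) and 10 with a ratio of 8, all from the 18, and 18 to 29 when any 1 library was left out, with 29 without SCAB1 replicate 1. With totals multiplied by the TMM factor it gave 17 genes, of which 14 were among the 18. Shared preys called higher with PKS5 numbered 8 with totals that leave out genes above 5%, 11 with a filter of about 100 reads (31.8% of the 1233 genes tested), and 4 to 10 when any 1 library was left out. Those higher with SOS2 numbered 3 with distinct reads, of which 2 were among the 5 (21.0% of all 872 genes tested), and 4 to 6 when any 1 library was left out. For recovery time 1 shared prey was called lower at 0 h with about 100 reads (27 of all genes tested), and 0 to 3 when any 1 library was left out. Sign changes arose only in genes without a call: SYTA at -0.041 with library size alone, -0.14 without PKS5 replicate 2 and -0.039 without SOS2 replicate 1 (up to 1.49 when other libraries were left out), CWLP at -0.061 with distinct reads, and AT5G18790 at -0.31 with library size alone, -0.086 without PKS5 replicate 2, -0.15 without SOS2 replicate 1 and -0.23 without SOS2 replicate 2 (up to 1.04 when other libraries were left out). Over all genes tested, those higher with PKS5 numbered 129 with library size alone, 136 with distinct reads and 437 without SCAB1 replicate 1, against 273, and those higher with SOS2 numbered 489 with about 100 reads, 183 with distinct reads and 592 without SOS2 replicate 3, against 944. For recovery time 933 genes were called higher at 0 h with totals that leave out genes above 5%. The cause of these shifts was not tested. With recovery time as a replicate block, 290 genes were higher with PKS5 and 971 with SOS2, and the shared preys called were the same 5 and 5. Deviations of same-numbered PKS5 and SOS2 libraries correlated across genes at -0.0071 to 0.15 over 3 pairs. These libraries share a recovery time, per the labels, and no culture or batch is labelled, so they were not treated as pairs. The distinct-read fits left out SCAB1 replicate 3 and tested 15 of the 18. With library size alone, with totals that leave out genes above 5% and with about 100 reads, limma gave the median gene a fully pooled variance. Whether this held for every gene was not recorded. The lowest adjusted p-values quoted in ranges for PKS5 against SOS2 came from such settings.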
